A study of Homo sapiens with 7 samples.

Results

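The 39 genes described here encode the machinery of mitosis and chromosome segregation in human embryonic stem cells. They were taken from a fixed list of gene symbols, matched to the Ensembl gene ID of each isoform in a long-read RNA table, and all isoforms of a gene were summed to a gene total. Of the 39, 38 had at least 1 isoform row (1898 of the 386982 isoform rows; 38 of 14294 genes), and CENPE, a kinetochore motor, had none. In 35 of the 38 the mean level over the 7 libraries was at least 5 TPM, the authors' unit of transcript abundance, which is the level used below for every comparison with the control. The other three were CENPF, KIF14 and KIF20B, whose values are given at the end of the section on levels.

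Cells enter mitosis when CDK1, bound by cyclins A and B, phosphorylates its many substrates. Condensin compacts the chromosomes, kinetochores attach them to spindle microtubules, and the spindle checkpoint holds back the anaphase-promoting complex (APC/C) until all chromosomes are attached. The APC/C, with its activator CDC20 and the ubiquitin-conjugating enzyme UBE2C, then marks securin (PTTG1) and cyclin B for destruction, and kinesins, the chromosomal passenger complex and midzone proteins complete segregation and cytokinesis. Embryonic stem cells are known for fast division with a short G1 phase.

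The libraries came from the human embryonic stem cell line HUES66. One library, labelled wild type, served as the control, and 6 carried the genotype label of an RBFOX2 isoform knockdown with an RBFOX2 number: G3 (178147), G5 (178149), G11 (178136), G12 (178135), G13 (178145) and G14 (178146). RBFOX2 is a splicing regulator, and the knockdowns used Cas13d, an RNA-guided nuclease that cleaves RNA. All 7 cultures, the control included, had received 1 µg/ml doxycycline, were labelled with the 24 h time point and with piggyBac, a transposon used to insert transgenes; the labels do not say whether the control carries Cas13d or a guide. Each group is 1 library, so no difference below has a replicate check or a p-value. Each value compares 2 libraries, all 6 comparisons share the 1 control, and the 95% intervals (exact for a percentage of the control, Wilson for a share of reads) cover counting error only.

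Library totals ran from 16801842 to 26678538 reads, each standing for 1 cDNA molecule, and TPM here is a read count relative to its library's total, not divided by length. The control was the shallowest library, and 3 reads correspond to 0.112 to 0.179 TPM. The RBFOX2 gene total was 39.2% of the control in G3, 52.2% in G13, 77.3% in G11, 82.5% in G12, 90.3% in G5 and 98.6% in G14; a gene total does not show the isoform aimed at. Pluripotency markers summed to 1696 to 2147 TPM over 10 of 11 genes with a row (SOX2 had none). Within that sum POU5F1 and NANOG were highest in the control, POU5F1 running from 377 to 915 TPM and NANOG from 3.49 to 10.0 TPM. DNMT3B ran from 13.4 to 68.0 TPM, while DPPA4, L1TD1, TDGF1 and SALL4 were lowest in the control. The part of these markers in the results was not tested. Endoderm markers summed to at most 0.179 TPM. Mesendoderm markers summed to 0.175 to 3.53 TPM and trophoblast markers to 0.937 to 2.41 TPM. The fibroblast list summed to 825 to 945 TPM, of which THY1, which stem cells also carry, held 808 to 918 TPM, and COL3A1 and DCN had no row. In the neuroectoderm list OTX2 stood at 101 to 140.3 TPM and PAX6 and SOX1 had no row. In such bulk libraries, fewer cells in mitosis and less RNA per cell cannot be told apart.

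The summed level of the members was 9297 TPM in the control, with G3 at 9666, G5 at 10765, G11 at 11302, G12 at 11249, G13 at 11667 and G14 at 12363. The sum was thus lowest in the control and highest in G14. On the log2(TPM + 0.5) scale, the median difference of the 35 members from the control was 0.20 for G3, 0.37 for G5, 0.33 for G11, 0.12 for G12, 0.19 for G13 and 0.40 for G14. Over all 7877 genes with the same minimum level, the corresponding medians were 0.12, 0.14, −0.04, −0.16, −0.21 and −0.10. The control was the lowest of the 7 libraries for 14 of the 35 members, as it was for 21.1% of all genes, and the highest for 3 members, UBE2C, PTTG1 and AURKB (20.5% of all genes). G14 was the highest library for 16 members and for 24.1% of all genes.

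Few members stood 2-fold or more from the control. In G3 none was 2-fold higher (1.89% of all genes were) and 2 were 2-fold lower, UBE2C and PTTG1 (5.14% of all genes). In G5 NCAPH was 2-fold higher (0.533%) and UBE2C, PTTG1 and AURKB were 2-fold lower (10.1%). In G11 the higher members were SMC2, NCAPH and NUSAP1 (0.724%), and the lower ones were again UBE2C, PTTG1 and AURKB (10.4%). G12 had 1 higher member, NUSAP1 (0.546%), and 1 lower, INCENP (8.79%). In G13 SMC2 and NUSAP1 were higher (1.04%) and INCENP was lower (14.6%). G14 had 6 higher members, NDC80, SMC2, NCAPH, KIF18A, TPX2 and NUSAP1 (3.97%), and 3 lower, UBE2C, PTTG1 and AURKB (18.9%). The 6 genes named most often lie, in GENCODE 29 on GRCh38, at chr20:45812576-45816957 (UBE2C), chr5:160421822-160428744 (PTTG1), chr17:8204733-8210600 (AURKB, minus strand), chr15:41332694-41381050 (NUSAP1), chr2:96335787-96373845 (NCAPH) and chr9:104094260-104141417 (SMC2), all on the plus strand but AURKB. These counts are relative to the control. Against the median of the other 6 libraries, only INCENP was 2-fold away, higher by 1.08 (log2) in G3 and lower in G13. Those libraries are mostly knockdown libraries, so a difference that these share largely cancels. The comparison thus cannot show whether the control is unusual. With the trend on transcript length and GC content removed, no member was 2-fold lower in any library. The share of all genes that were 2-fold lower then ran from 1.06% in G3 to 6.39% in G14. The 2-fold higher members then numbered 0 in G3, G5 and G11 (1.38%, 0.776% and 1.07% of all genes). They numbered 1 in G12 (PLK1, 1.45%), 4 in G13 (SMC2, NCAPH, PLK1 and NUSAP1, 3.28%) and 5 in G14 (these 4 and TPX2, 4.34%).

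**Figure D1:**
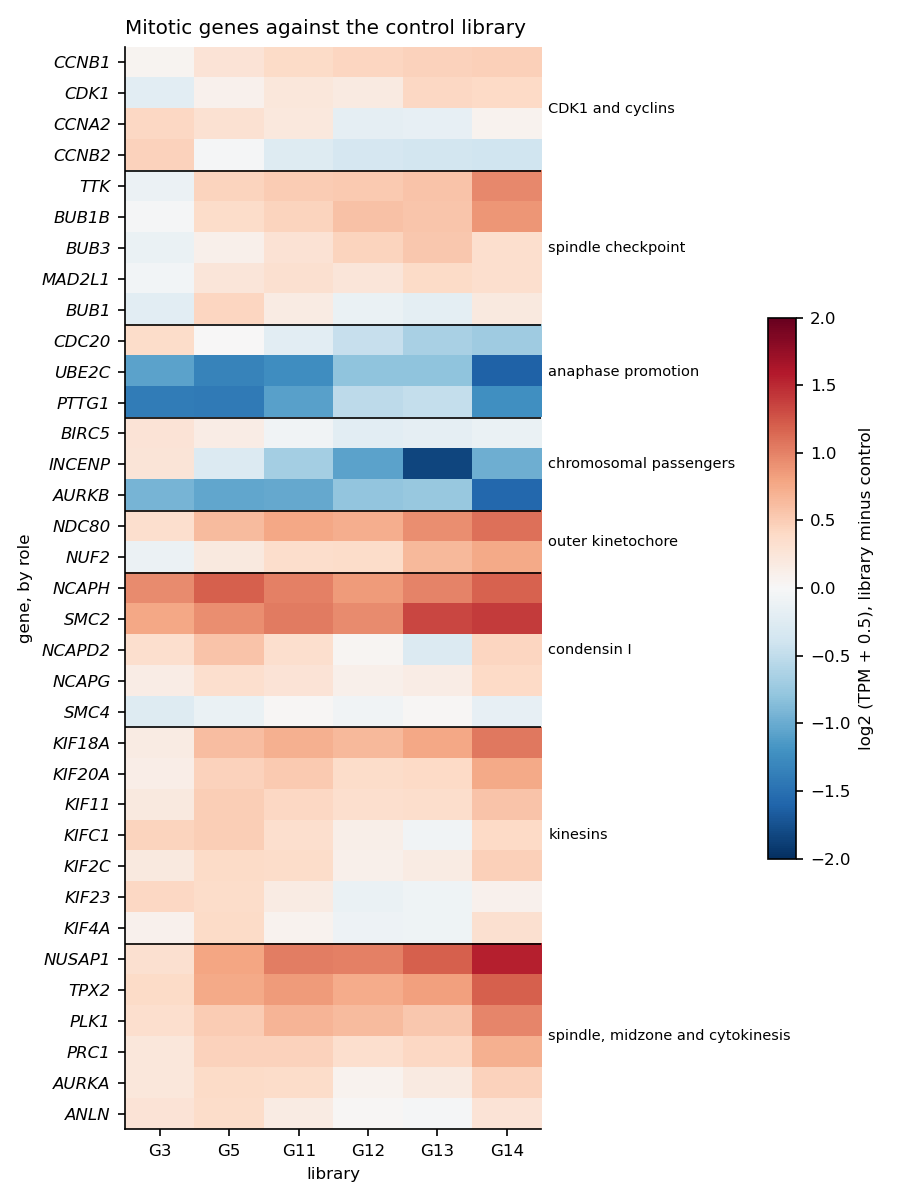
Difference from the control of each of the 35 members (rows, grouped by role) in each of the 6 knockdown libraries (columns), as log2(TPM + 0.5) in that library minus the control, from blue (lower) to red (higher). UBE2C, PTTG1 and AURKB are blue in all 6 columns, and NCAPH, SMC2, NUSAP1 and TPX2 are red in all 6, most deeply in G14 except for NCAPH.

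Among CDK1 and its cyclins, the 2 B-type cyclins differed in direction in G11, G12, G13 and G14. CCNB1, the main mitotic cyclin, stood at 1563 TPM in the control, with G3 at 1618, G5 at 1886, G11 at 2041, G12 at 2110, G13 at 2146 and G14 at 2176. The control was thus the lowest, and G14 reached 139% of it (95% interval 137 to 141%). CCNB2, the second B-type cyclin, stood at 199.5 TPM in the control, with G3 at 275, G5 at 196, G11 at 167, G12 at 157, G13 at 155 and G14 at 151. G3 was above the control at 138% (132 to 144%) and G14 below it at 75.8% (72.2 to 79.6%), so that the control lay inside the range of the other libraries. CCNA2, the cyclin active from S phase into early mitosis, was likewise highest in G3 (152 TPM against 114 in the control) and lowest in G12 (101 TPM). CDK1, the kinase itself, ran from 337 TPM in G3 to 519 in G13, with 390.3 in the control.

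The spindle checkpoint genes were low or near the control in G3 and mostly higher in the other libraries. TTK (MPS1), the kinase that starts checkpoint signalling, stood at 108 TPM in the control, with G3 at 99.5, G5 at 146, G11 at 153, G12 at 155, G13 at 159.6 and G14 at 211. G14 reached 196% of the control (185 to 207%), while G3 was at 92.4% (86.5 to 98.7%). BUB1, a checkpoint kinase of the kinetochore, stood at 138 TPM in the control, with G3 at 119, G5 at 187, G11 at 155, G12 at 126, G13 at 121 and G14 at 158, with no common direction. BUB1B, which encodes the checkpoint protein BUBR1, ran from 57.3 TPM in G3 to 108 in G14, with 58.1 in the control, from which G3 did not differ beyond counting error (98.7%, 90.3 to 108%). BUB3, its binding partner, ran from 1551 TPM in G3 to 2455 in G13, with 1694 in the control. MAD2L1, which encodes the checkpoint effector MAD2, ran from 406 TPM in G3 to 549.8 in G13, with 423 in the control.

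Of the 3 genes around the anaphase-promoting complex, UBE2C and PTTG1 had the lowest median differences of all members. UBE2C stood at 267 TPM in the control, with G3 at 127, G5 at 105, G11 at 113, G12 at 152, G13 at 153 and G14 at 86.4. The control was above all 6 libraries, which lay between 32.3% (30.6 to 34.1%) of it in G14 and 57.1% (54.6 to 59.7%) in G13. PTTG1, the separase inhibitor securin, stood at 337 TPM in the control, with G3 at 128, G5 at 126, G11 at 159, G12 at 234, G13 at 242 and G14 at 144. Again the control was highest, and G12 and G13 were nearest to it, at 69.4% (66.9 to 72.0%) and 71.7% (69.1 to 74.5%). CDC20, the APC/C activator, stood at 612 TPM in the control, with G3 at 789.7, G5 at 613, G11 at 529, G12 at 443, G13 at 390.3 and G14 at 375. G3 was at 129% of the control (126 to 132%), G5 did not differ from it beyond counting error at 100.2% (97.7 to 103%), and G14 was at 61.3% (59.5 to 63.2%).

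The chromosomal passenger complex joins the kinase Aurora B to INCENP and survivin at centromeres and the midzone. AURKB, the kinase, stood at 163 TPM in the control, with G3 at 85.8, G5 at 79.5, G11 at 79.9, G12 at 94.7, G13 at 96.9 and G14 at 54.6. The control was above all 6, which lay between 33.4% (31.2 to 35.8%) in G14 and 59.3% (56.1 to 62.8%) in G13. INCENP, the scaffold, stood at 12.7 TPM in the control, with G3 at 15.2, G5 at 10.5, G11 at 7.73, G12 at 5.77, G13 at 3.20 and G14 at 6.21. It had the widest spread of any member among the knockdown libraries, 2.08 on the log2 scale (member median 0.63, all genes 0.75), on 213 reads in the control. With the trend on transcript length and GC content removed, INCENP was below the control in all 6 libraries. It then ran only from −0.45 in G5 to −0.18 in G14, with G3 at −0.30. BIRC5, which encodes survivin, stood at 563 TPM in the control, with G3 at 677, G5 at 625, G11 at 537, G12 at 484, G13 at 495 and G14 at 511, within 0.27 of the control on the log2 scale throughout.

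**Figure D2:**
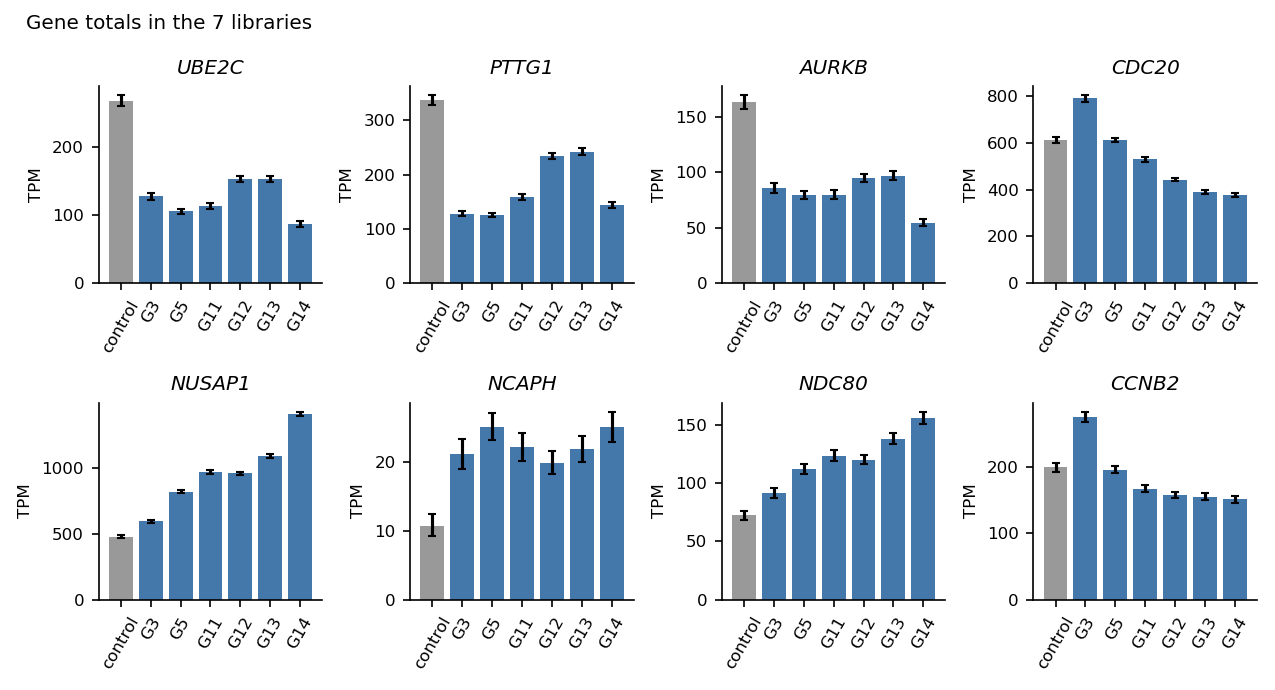
Gene totals in TPM (vertical axes from 0) of 8 members in the control (grey) and the 6 knockdown libraries (blue), 1 library per bar, with 95% Poisson intervals for counting error. UBE2C, PTTG1 and AURKB are highest in the control, NUSAP1, NCAPH and NDC80 are lowest in it, and CDC20 and CCNB2 are highest in G3.

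NDC80 and NUF2 encode partners in the rod-shaped NDC80 complex, which binds microtubules at the outer kinetochore. NDC80 stood at 72.3 TPM in the control, with G3 at 91.6, G5 at 112, G11 at 124, G12 at 120.2, G13 at 138 and G14 at 156. All 6 libraries were above the control, and G14 reached 215% of it (202 to 230.3%). NUF2 stood at 83.6 TPM in the control, with G3 at 76.6, G5 at 95.7, G11 at 107, G12 at 108, G13 at 131 and G14 at 142. Its control value lay between G3 and G5, and many of the NUF2 reads in the control ended early, as described with the isoforms.

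The condensin I subunits split. NCAPH, the kleisin that bridges the complex, stood at 10.8 TPM in the control, with G3 at 21.2, G5 at 25.2, G11 at 22.2, G12 at 19.9, G13 at 21.9 and G14 at 25.1. All 6 libraries lay between 185% (156 to 220.3%) and 234% (198 to 277%) of the control, on 181 control reads. SMC2, one ATPase arm, stood at 5.65 TPM in the control, with G3 at 9.97, G5 at 11.3, G11 at 12.1, G12 at 11.4, G13 at 15.1 and G14 at 15.7, on 95 control reads. SMC4, the other arm, stood at 90.1 TPM in the control, with G3 at 75.6, G5 at 82.1, G11 at 91.4, G12 at 85.8, G13 at 91.9 and G14 at 80.6. SMC4 had the narrowest spread of any member among the knockdown libraries, 0.28 on the log2 scale. However, 93.3% to 99.7% of its reads ended before the annotated terminal exon, as described with the isoforms. Without those reads SMC4 stood at 1.79 TPM in the control and at 0.262 to 5.04 TPM in the knockdown libraries. NCAPG, a HEAT-repeat subunit, was lowest in the control (68.7 TPM) and highest in G14 (90.5 TPM). NCAPD2, the other HEAT-repeat subunit, ran from 19.3 TPM in G13 to 35.1 in G5, with 23.4 in the control.

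Of the 7 kinesins compared, KIF18A, which limits chromosome oscillation at the metaphase plate, had the highest median difference. It stood at 43.1 TPM in the control, with G3 at 48.5, G5 at 66.6, G11 at 71.0, G12 at 68.1, G13 at 74.0 and G14 at 90.04, up to 209% of the control (191 to 228%). KIF4A, a chromosome-bound motor, stood at 11.4 TPM in the control, with G3 at 12.2, G5 at 15.1, G11 at 12.001, G12 at 10.6, G13 at 10.8 and G14 at 14.5, and its interval excluded 100% only in G5 (132%, 111 to 158%) and G14 (127%, 105 to 152%). KIF11, the plus-end motor that separates spindle poles, was lowest in the control (28.4 TPM) and reached 42.5 TPM in G14. KIF20A, which works in cytokinesis, was also lowest in the control (94.04 TPM; 159 in G14), as was KIF2C, a microtubule depolymerase (77.4 TPM; 108 in G14). KIFC1, a minus-end motor, ran from 153 TPM in G13 to 227 in G5 with 161 in the control, and KIF23, a subunit of the centralspindlin complex of the midzone, from 53.3 TPM in G12 to 77.8 in G3 with 58.6 in the control.

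The spindle, midzone and cytokinesis group held NUSAP1, the member with the highest median difference (1.01 on the log2 scale). NUSAP1, which bundles spindle microtubules near chromosomes, stood at 478 TPM in the control, with G3 at 596, G5 at 822, G11 at 969, G12 at 961, G13 at 1091 and G14 at 1410.5. All 6 libraries were above the control, from 125% (121 to 128%) in G3 to 295% (288 to 303%) in G14. ANLN, which encodes the actin-binding protein anillin of the cleavage furrow, stood at 80.5 TPM in the control, with G3 at 97.6, G5 at 104, G11 at 90.7, G12 at 81.6, G13 at 79.5 and G14 at 97.2. In G12 (101%, 94.6 to 109%) and G13 (98.8%, 92.0 to 106%) ANLN did not differ from the control beyond counting error. TPX2, which activates Aurora A on the spindle, ran from 196 TPM in the control to 449.6 in G14, and PLK1, a kinase with roles from mitotic entry to cytokinesis, from 665 to 1310.2 TPM. AURKA, the spindle pole kinase, ran from 318 TPM in the control to 439 in G14, a difference of 0.47 on the log2 scale, where its relative AURKB was lower by 1.57. PRC1, the midzone bundling protein, ran from 85.0 TPM in the control to 139 in G14.

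The remaining 3 members were under the minimum level. CENPF, a large kinetochore protein, had 2 reads in the control and none in the other libraries, where 3 reads would be at most 0.168 TPM. Every listed isoform had at least 1 control read, so CENPF isoforms seen only with knockdown would not be listed. Its absence from the other libraries therefore cannot be read as a difference. KIF20B, a cytokinesis kinesin, reached 0.351 TPM at most, in G13. KIF14, a midzone kinesin, ran from 0.570 TPM in G13 to 2.41 in G3, with 2.02 in the control. The longest coding transcript annotated in GENCODE 29 is 10307 nt for CENPF, 8612 nt for CENPE, 7274 nt for KIF14 and 6419 nt for KIF20B, which with BUB3 (7828 nt) are the 5 longest of the list. The part of transcript length in the low values was not tested.

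Transcript length moved with the differences. PTTG1 (765 nt), UBE2C (845 nt) and AURKB (1220 nt) were the 3 shortest members by the mean length of their listed isoforms, against a member median of 2757 nt and 2450 nt over all genes compared. Over the 35 members, Pearson's r between log2 length and log2 difference was 0.60 for G3, 0.68 for G5, 0.55 for G11, 0.34 for G12, 0.25 for G13 and 0.53 for G14, as a description of points that share their libraries. The same r over 7736 genes was 0.53, 0.61, 0.37, 0.12, 0.02 and 0.37. Spearman's rank correlation over the members was weaker, at 0.23, 0.43, 0.26, 0.17, 0.13 and 0.24 in the same order. Over all genes it was 0.45, 0.51, 0.34, 0.15, 0.08 and 0.37. For the 10% shortest of all genes, with a median of 933 nt, the median log2 difference was −0.93 for G3, −1.24 for G5, −0.98 for G11, −0.56 for G12, −0.57 for G13 and −1.30 for G14. The bin with a median of 1995 nt had 0.17, 0.19, 0.10, −0.07, −0.08 and 0.07 in the same order. For the 10% longest genes, with a median of 5386 nt, the values were 0.20, 0.23, 0.03, −0.14, −0.24 and 0.04. UBE2C and PTTG1 were both nearest to the control in G12 and G13, the libraries with the lowest r over all genes. With a trend on length and GC content removed, UBE2C was below 0 in all 6 libraries (−0.64 to −0.29), and PTTG1 was at −0.57 in G3, −0.41 in G5 and −0.28 to −0.08 in the others.

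GC content moved with the differences as well. The member median was 43.3% against 47.9% over all genes compared, and r between GC content and log2 difference over the members ran from −0.58 in G13 to −0.01 in G3 (all genes −0.54 and 0.02). INCENP, at 60.1% GC, was the member richest in G and C. With a trend on length and GC content fitted over all genes and removed, the median over the 6 libraries changed from −1.16 to −0.47 for UBE2C, from −1.16 to −0.22 for PTTG1, from −0.98 to −0.51 for AURKB, from −0.83 to −0.26 for INCENP and from −0.34 to −0.02 for CDC20. Among the higher members, NUSAP1 had 1.01 before and 0.91 after, NCAPH 1.00 and 0.94, SMC2 0.99 and 0.90, TPX2 0.78 and 0.74, NDC80 0.75 and 0.61, KIF18A 0.68 and 0.47, and TTK 0.51 and 0.29. PLK1, at 57.2% GC, had 0.59 before and 0.96 after. The member medians after removal were 0.02 for G3, 0.16 for G5, 0.22 for G11, 0.20 for G12, 0.30 for G13 and 0.30 for G14, beside 0.02, 0.06, 0.05, 0.02, 0.02 and 0.05 over all genes.

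**Figure D3:**
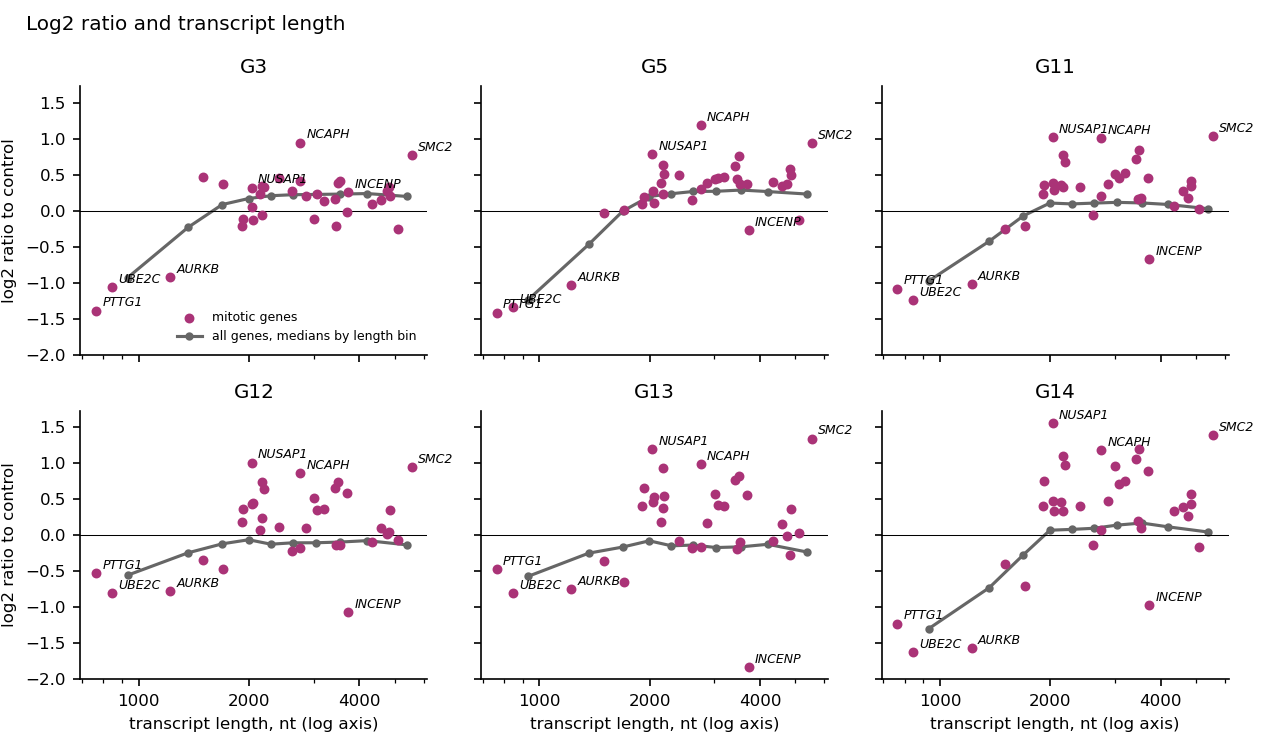
Log2 difference from the control (vertical axis) against transcript length in nt (log axis) for the 35 members (purple) in each knockdown library, with the medians of all genes in 10 bins of length (grey line). UBE2C and PTTG1 lie at the short end near the grey line, AURKB lies below it, and NUSAP1, NCAPH and SMC2 lie above it in each panel.

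Promoters of the members were searched for 2 short elements known from cell-cycle genes: the CCAAT box, bound by NF-Y, and the cell-cycle genes homology region (CHR), bound by MuvB complexes. RefSeq start sites on GRCh38.p14 were matched for 33 of the 39 genes, not for BUB3, TTK, UBE2C, BIRC5, AURKA and TPX2, and the window ran from 250 bases before to 50 after the start. CCAAT, read on both strands (ATTGG on the other), was present in 24 of 33 members (72.7%) and in 39.7% of 27305 genes. TTTGAA or TTCGAA, read on both strands (TTCAAA on the other; TTCGAA is its own reverse), was present in 25 of 33 (75.8%) and in 19.5% of genes. Both were present in 18 members (54.5%, against 7.85%), and 2 or more CCAAT in 13 (39.4%, against 12.8%). The 2 motifs share no bases where both are printed here, and a match is a description of letters, not of binding.

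The promoters of 3 genes with large differences, PTTG1, NUSAP1 and NCAPH, and of the 2 B-type cyclins, which differed in direction, are printed 5′ to 3′ on the plus strand, which is the gene strand for all 5, with matches to either motif in capitals. PTTG1 lies at chr5:160421605-160421904, NUSAP1 at chr15:41332631-41332930, NCAPH at chr2:96335516-96335815, CCNB1 at chr5:69166900-69167199 and CCNB2 at chr15:59104896-59105195. The CCNB2 window held 4 CCAAT, with first bases 244, 120, 87 and 54 bases before the start, and a TTTGAA 29 bases before it. CCNB1 held 2 CCAAT, 87 and 55 bases before the start, and no match to the second motif. NUSAP1 held 3 CCAAT, 249, 105 and 64 bases before its RefSeq start, and a TTTGAA 13 bases after it. That start lies 185 nt downstream of the start of the leading isoform NUSAP1-202, so that the nearer 2 CCAAT and the TTTGAA fall inside the span of that isoform; for the other 4 genes the starts differ by 6 to 10 nt. PTTG1 held 2 CCAAT and NCAPH 1.
PTTG1: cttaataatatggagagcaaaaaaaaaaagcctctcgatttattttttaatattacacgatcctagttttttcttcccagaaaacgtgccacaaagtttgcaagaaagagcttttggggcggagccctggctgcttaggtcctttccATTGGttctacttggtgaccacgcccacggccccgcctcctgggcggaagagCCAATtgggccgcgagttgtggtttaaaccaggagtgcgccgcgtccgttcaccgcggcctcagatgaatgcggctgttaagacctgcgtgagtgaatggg
NUSAP1: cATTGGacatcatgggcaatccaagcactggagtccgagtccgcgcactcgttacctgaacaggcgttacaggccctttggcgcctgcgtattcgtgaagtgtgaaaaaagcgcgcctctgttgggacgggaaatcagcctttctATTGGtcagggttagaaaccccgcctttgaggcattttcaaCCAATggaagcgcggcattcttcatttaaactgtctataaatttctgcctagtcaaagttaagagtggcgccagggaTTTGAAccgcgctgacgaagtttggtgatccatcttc
NCAPH: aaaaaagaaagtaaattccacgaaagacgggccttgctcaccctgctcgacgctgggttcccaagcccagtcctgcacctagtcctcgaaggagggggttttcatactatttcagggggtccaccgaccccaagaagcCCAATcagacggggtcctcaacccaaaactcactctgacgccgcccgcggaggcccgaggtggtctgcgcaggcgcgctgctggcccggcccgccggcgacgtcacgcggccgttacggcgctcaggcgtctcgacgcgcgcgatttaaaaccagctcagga
CCNB1: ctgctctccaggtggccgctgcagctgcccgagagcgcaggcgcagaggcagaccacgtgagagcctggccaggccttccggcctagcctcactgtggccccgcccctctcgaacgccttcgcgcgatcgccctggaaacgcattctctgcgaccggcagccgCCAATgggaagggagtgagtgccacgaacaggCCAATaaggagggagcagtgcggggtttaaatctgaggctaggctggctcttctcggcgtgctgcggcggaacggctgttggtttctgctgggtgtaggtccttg
CCNB2: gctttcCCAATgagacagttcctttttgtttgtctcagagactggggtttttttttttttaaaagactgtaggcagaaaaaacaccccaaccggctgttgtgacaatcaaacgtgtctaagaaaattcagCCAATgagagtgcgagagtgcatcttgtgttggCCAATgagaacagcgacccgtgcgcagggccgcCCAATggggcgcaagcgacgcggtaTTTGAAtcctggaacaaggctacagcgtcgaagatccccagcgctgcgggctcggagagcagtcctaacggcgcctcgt

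Among 33 members with at least 100 reads in every library, the same isoform led in all 7 libraries in 33 of 33, and in 31 it carried a reference transcript ID, the exceptions being SMC4 and PRC1. The leading isoform held 83.7% of reads in the median member (79.6% in the median gene). The total variation distance between the isoform shares in a library and in the control, which is 0 for equal usage and 1 for none shared, had a member median of 0.032 for G3, 0.034 for G5, 0.032 for G11, 0.035 for G12, 0.037 for G13 and 0.043 for G14. Over 6982 genes it was 0.057, 0.056, 0.059, 0.059, 0.066 and 0.070. NUF2 was the farthest member from the control in all 6 libraries, from 0.235 in G3 to 0.348 in G14, where the median distance between knockdown libraries was 0.063. By their medians NCAPG (0.215), KIF23 (0.181), SMC4 (0.163), NCAPH (0.145) and CDC20 (0.114) followed. The median distance between knockdown libraries was 0.075 for NCAPG, 0.133 for KIF23, 0.152 for SMC4, 0.097 for NCAPH and 0.078 for CDC20, so that SMC4 was about as far from the control as these libraries were from each other.

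NUF2, NCAPG and KIF23 held many reads that ended before the start of the terminal exon of the leading reference isoform. Every listed isoform had at least 1 control read. Isoforms seen only with knockdown thus enter neither these shares nor the distances above. For NUF2 such reads made up 37.4% (95% Wilson interval 34.9 to 40.0%) of the control reads, with G3 at 15.8%, G5 at 10.7%, G11 at 9.15%, G12 at 11.6%, G13 at 7.87% and G14 at 4.05% (3.39 to 4.82%). The largest of these early-ending isoforms ran from 163321894 to 163343870 on chromosome 1 and held 26.9% of NUF2 reads in the control and 2.33% in G14. The leading isoform NUF2-201 (chromosome 1, 163321920 to 163355764) held 32.7% in the control, with G3 at 51.3%, G5 at 55.0%, G11 at 57.6%, G12 at 53.1%, G13 at 56.3% and G14 at 55.2%. Without the early-ending reads, NUF2 stood at 52.3 TPM in the control, with G3 at 64.5, G5 at 85.5, G11 at 97.3, G12 at 94.98, G13 at 121 and G14 at 136, so that the control was lowest, with a median log2 difference of 0.87 in place of 0.36.

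NCAPG showed early-ending reads at 34.6% (31.9 to 37.4%) in the control, with G3 at 31.6%, G5 at 19.6%, G11 at 16.7%, G12 at 17.6%, G13 at 13.5% and G14 at 13.1% (11.6 to 14.7%). The intervals of the control and G3 overlapped, and the other 5 libraries were lower. The leading isoform NCAPG-201 (chromosome 4, 17810969 to 17845705) held 53.6% in the control, with G3 at 59.2%, G5 at 69.6%, G11 at 71.9%, G12 at 70.7%, G13 at 75.2% and G14 at 75.3%. KIF23 had 26.7% (24.1 to 29.6%) in the control, 30.0% in G3 and between 10.6% and 17.1% in the other libraries, and NCAPD2 had 9.41% in the control, 8.14% in G3 and 1.80% in G14. In SMC4 between 93.3% and 99.7% of reads ended before the annotated terminal exon in every library, and only 1.18% of its reads carried a reference ID, on which its length above rests. The early-ending share was highest in the control for 6 of 33 members, against 19.0% of 6871 genes, so the count is near the background. What sets these ends was not tested.

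**Figure D4:**
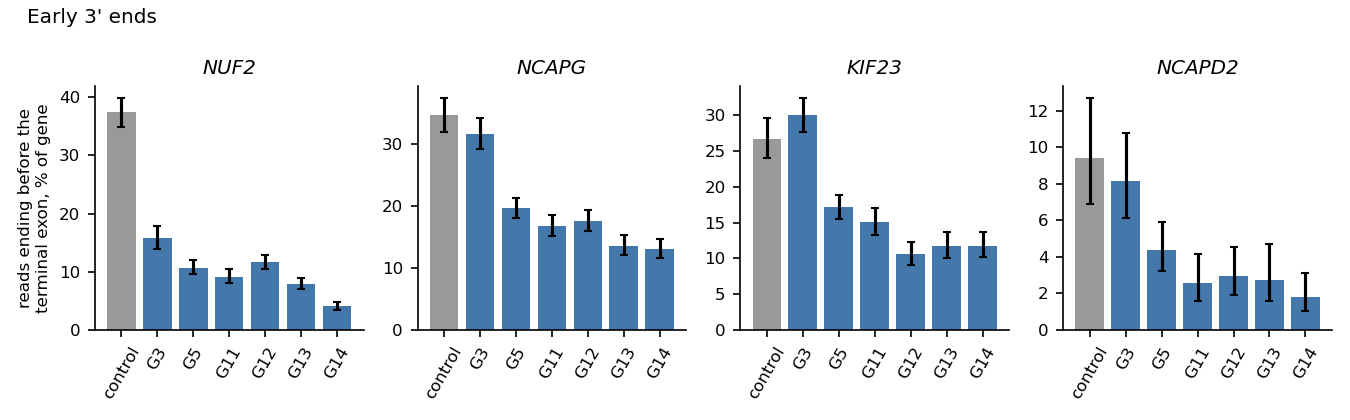
Share of reads that end before the terminal exon, in percent of the gene's reads (vertical axes from 0, scales differ), for NUF2, NCAPG, KIF23 and NCAPD2 in the control (grey) and the 6 knockdown libraries (blue), with 95% Wilson intervals. NUF2 is at 37.4% in the control and at 4.05% in G14, while for the other three genes G3 lies near the control.

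Pairs of isoforms that differ by 1 exon or exon edge were followed in 9 cases, chosen after isoform values were seen. CDC20 had the widest range: of the reads of CDC20-201 and CDC20-202, which differ in their first exon and have coding sequences of equal length, CDC20-201 took 78.9% (78.1 to 79.7%) in the control, with G3 at 79.1%, G5 at 74.2%, G11 at 71.4%, G12 at 67.3%, G13 at 69.6% and G14 at 65.2% (64.1 to 66.3%). The control and G3 were level and the other 5 lower. BUB3 has 2 leading isoforms, BUB3-201 and BUB3-203, and BUB3-201 took 49.2% (48.6 to 49.8%) of the pair in the control, with G3 at 46.1%, G5 at 46.8%, G11 at 48.8%, G12 at 45.9%, G13 at 46.5% and G14 at 42.1% (41.6 to 42.6%). The table ends BUB3-201 at 123170467 and BUB3-203 at 123165406 on chromosome 10, whereas GENCODE 29 ends them at 123165365 and 123170467, so which of the 2 reaches farther is uncertain.

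KIF23 has a 312-nt coding exon, exon 18 of 23 in KIF23-201 at chr15:69440768-69441079, that KIF23-202 lacks without a change of reading frame. The isoform with it took 51.9% (47.7 to 56.0%) of the pair in the control, with G3 at 51.4%, G5 at 53.2%, G11 at 53.1%, G12 at 63.0% (60.01 to 65.9%), G13 at 59.3% (56.0 to 62.5%) and G14 at 61.9% (58.7 to 64.9%). The control, G3, G5 and G11 did not differ beyond counting error, G12 and G14 were above the control's interval, and the interval of G13 touched it. ANLN has a 111-nt coding exon at chr7:36417080-36417190, present in 71.8% (69.0 to 74.6%) of the pair's reads in the control, with G3 at 71.2%, G5 at 75.6%, G11 at 72.5%, G12 at 75.4%, G13 at 76.5% and G14 at 76.7% (74.5 to 78.7%), whose interval overlapped that of the control. The first and last 90 bases of the KIF23 exon and the whole ANLN exon are printed 5′ to 3′ on the gene strand (plus in both), from GENCODE 29 on GRCh38, to show the 2 sequences whose inclusion was measured. RBFOX proteins are known to bind GCATG, and neither exon holds these letters on its RNA strand, which says nothing of the introns around them.
KIF23 exon start: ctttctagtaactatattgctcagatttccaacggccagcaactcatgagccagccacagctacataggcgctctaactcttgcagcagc
KIF23 exon end: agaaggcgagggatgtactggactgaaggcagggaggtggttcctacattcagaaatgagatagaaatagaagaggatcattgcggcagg
ANLN exon: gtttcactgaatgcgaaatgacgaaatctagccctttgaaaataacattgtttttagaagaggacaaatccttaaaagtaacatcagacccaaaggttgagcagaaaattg

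The other pairs ranged less widely, except that of NUF2. The 118-nt exon of BIRC5, whose absence gives a shorter survivin form, was present in 91.1% (90.5 to 91.7%) of the pair's reads in the control and 94.04% (93.6 to 94.5%) in G14, intervals that do not overlap, with the other libraries in between. A 69-nt BIRC5 exon was included in 6.53% to 7.77% of reads. In TTK an exon edge that differs by 3 nt was used at 84.0% to 86.1%, and in NUSAP1 such an edge at 45.9% to 47.0%. In NUF2 the isoform with the later start, NUF2-201, took 58.3% (54.8 to 61.7%) of its pair in the control and 62.5% to 68.3% in the knockdown libraries, with G11 highest at 68.3% (66.1 to 70.3%). The intervals of G3, G5, G11, G12 and G13 lay above that of the control, and that of G14 (60.7 to 64.4%) overlapped it. Isoform ends in the table appear to be the widest extent of the reads of an isoform, so the first and last positions are approximate.

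**Figure D5:**
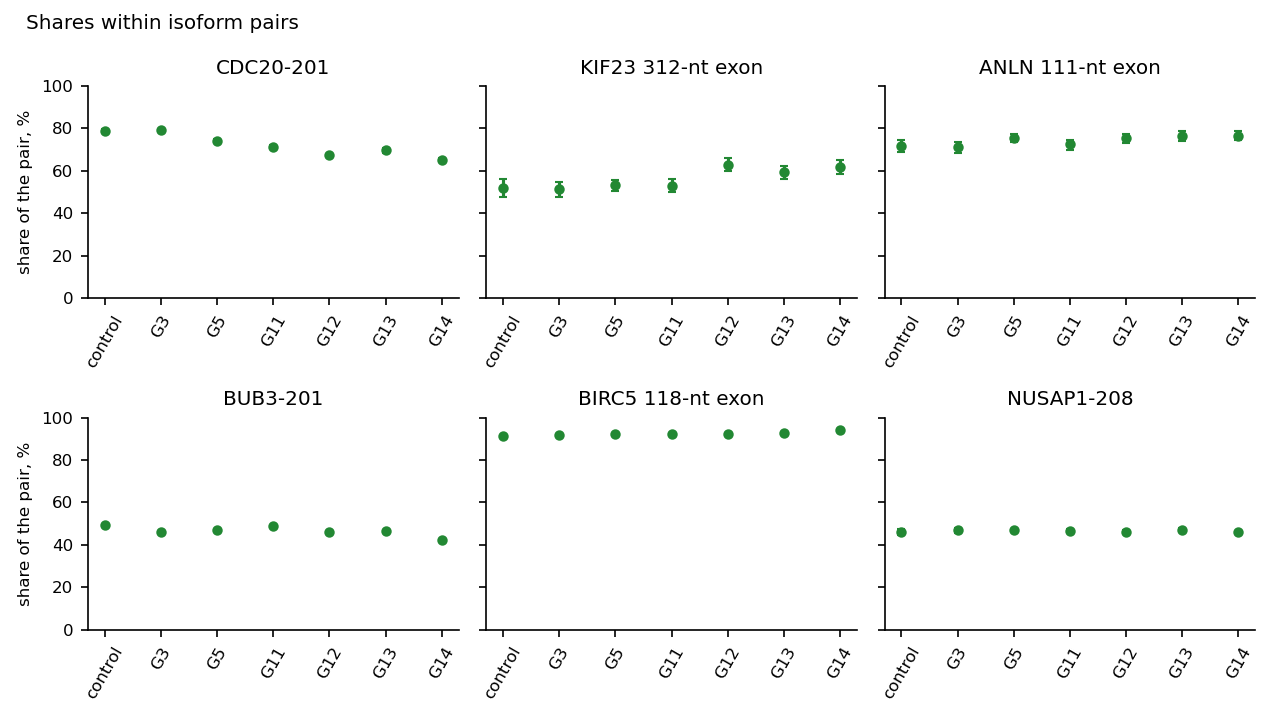
Share of 1 isoform within an isoform pair in percent (vertical axis 0 to 100), in the control and the 6 knockdown libraries, with 95% Wilson intervals (often smaller than the point). CDC20-201 is at 78.9% in the control and 65.2% in G14, the KIF23 exon at 51.9% in the control and 63.0% in G12, BIRC5 runs from 91.1% to 94.04%, and NUSAP1 from 45.9% to 47.0%.

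Lists of other genes of the same pathways were read beside the background shares of all genes given above. In G14 these were 3.97% for 2-fold higher and 18.9% for 2-fold lower. In the other libraries they ran from 0.533% to 1.89% for higher and from 5.14% to 14.6% for lower. Of 13 cohesin genes and regulators compared, 5 were 2-fold higher and 1 lower in G14, and in the other libraries 1 or 2 were higher and at most 1 lower; the list median ran from 0.02 to 0.42 on the log2 scale, where that of all genes ran from −0.21 to 0.14. SMC3, a cohesin ATPase, ran at 6.67 TPM in the control, below its range of 20.3 to 42.5 TPM with knockdown, while MAU2, part of the cohesin loader, ran from 5.05 TPM in G13 to 30.3 in G3 with 19.7 in the control. Of 15 APC/C genes and activators none was 2-fold higher and between 1 and 4 were lower, and the list median lay between −0.13 and 0.04 (log2), with signs that changed in G3, G5, G12 and G13 under another scaling or with the length and GC trend removed. ANAPC5 had the highest median of that list (141.9 TPM in the control, 225.9 in G14) and FZR1, the late-mitotic activator, the lowest (8.69 TPM in the control, 2.24 in G13, 16.2 in G3).

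Of 24 further kinetochore genes none was 2-fold higher in any library (0.533% to 3.97% of all genes). Between 1 and 4 were lower (5.14% to 18.9% of all genes), with list medians from 0.04 to 0.16. ZWILCH, of the complex that recruits dynein, ran from 126 TPM in the control to 229.9 in G14, and PMF1, a centromere protein with 1033-nt transcripts, from 166 TPM in the control down to 45.2 in G14. Of 26 further spindle and cytokinesis genes, 7 were 2-fold higher and 6 lower in G14 (3.97% and 18.9% of all genes). In the other 5 libraries none was higher (0.533% to 1.89%) and 2 to 4 were lower (5.14% to 14.6%). The list median was 0.67 in G14 and 0.17 to 0.41 elsewhere. KIF18B, a relative of KIF18A that shortens microtubules, stood at 17.4 TPM in the control, with G3 at 30.1, G5 at 13.1, G11 at 3.65, G12 at 1.99, G13 at 0.483 and G14 at 1.19. Its direction was thus opposite to that of KIF18A in 5 libraries, with G3 above the control for both. For KIF18B and the other single genes of these lists, values with the length and GC trend removed are not given here. CDCA2, which targets a phosphatase to chromosomes, had the highest median of that list (13.8 TPM in the control, 36.0 in G14).

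Both condensins share SMC2 and SMC4, which are given above with condensin I. The 3 genes listed for condensin II alone had no 2-fold difference and list medians from 0.01 to 0.31. Among them NCAPG2 ran from 100.0 TPM in the control to 148 in G14, and NCAPH2 from 52.3 TPM in G13 to 71.0 in G5, with 63.6 in the control, beside 10.8 TPM (control) and 19.9 to 25.2 TPM (knockdown libraries) for NCAPH, the condensin I kleisin. Of 12 regulators that act on mitotic promoters (MuvB, NF-Y and FOXM1 genes) none was 2-fold higher (0.533% to 3.97% of all genes). Up to 3 were lower, in G13 (14.6% of all genes), with list medians from −0.01 to 0.20. FOXM1, an activator of mitotic genes, stood at 21.5 TPM in the control, with G3 at 35.2, G5 at 22.7, G11 at 15.0, G12 at 12.3, G13 at 8.82 and G14 at 12.7, lowest of its list by the median, and LIN52, a MuvB subunit, was highest (23.9 TPM in the control, 45.5 in G14). Of 9 genes of the G1 phase (cyclins, CDKs and the RB pathway), at most 1 was 2-fold higher (0.533% to 3.97% of all genes). At most 2 were lower (5.14% to 18.9% of all genes), with list medians from −0.46 in G14 to 0.20 in G3. After removal of the trend on length and GC content, that list median changed sign in G3 (−0.06), G5 (−0.03) and G11 (0.05) and was −0.27 in G14, and signs also changed for condensin II in G3 (−0.04) and the promoter regulators in G12 (0.05). CCNE2 ran from 33.0 TPM in the control to 78.4 in G14, and E2F1 from 3.64 TPM in G13 to 15.0 in G3, with 12.1 in the control.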

How the data were processed

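Polyadenylated RNA of 7 HUES66 cultures was sequenced by the PacBio MAS-Seq method, in which cDNA molecules are joined into 8-fold arrays and split again in software, per the labels' protocols. For each isoform and library the deposited table holds the count of full-length reads and its TPM. Reads were aligned with minimap2 2.17 to GRCh38, per the submitters' processing notes; the isoform caller, its filters and the annotation are not given in the sources used here. Within a library, deposited TPM and count were in 1 fixed ratio (largest deviation 0.01), so TPM holds no length term, and the ratio gave the library total. NA cells were read as 0. Every listed isoform had at least 1 control read, so isoforms absent from the control do not enter any value.

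Isoforms were summed per Ensembl gene ID stem, and genes with a mean of at least 5 TPM were compared as log2(TPM + 0.5), library minus control; that scale understates changes of low genes. Intervals are at 95%: exact conditional for ratios, Poisson for levels, Wilson for shares. With 1 library per group no test across genes was fitted. Isoform shares used genes with at least 100 reads in every library. Length and GC content were means over the annotated exons of listed isoforms (GENCODE 29), weighted by TPM, for 7736 of 7877 genes; promoters came from RefSeq on GRCh38.p14. Starts in the table appear 0-based and are printed 1-based. Scripts were tested on simulated counts.

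Genes with values in every library were, in each of 8 roles, those with the highest and lowest median difference, and members 2-fold away in at least 4 knockdown libraries. In each of 7 pathway lists the highest and lowest were named, mostly by ranges or single libraries. Other members are given by ranges. INCENP, SMC2 and KIF18B are given in full after their values were seen, and FOXM1 is given in full too. Isoforms were named at a mean share of at least 20% and a range of at least 20 points, and others after their values were seen. The members, lists and rules were chosen with earlier results of these data known. Tools were Python 3.11.15, pandas 2.3.3, numpy 2.4.6, scipy 1.17.1 and matplotlib 3.10.9. Spike-in reads were not used here.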

Additional observations from a re-analysis of the deposited data

Results flagged for a closer look

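Members that stood at least 1.25-fold above the control in 1 knockdown library and at least 1.25-fold below it in another were looked for, and 2 met this. The share of all genes that meet this rule is not given here, so the count cannot be set against a background. CCNB2 was higher by 0.46 on the log2 scale in G3 and lower in G14 (275 and 151 TPM, against 199.5 in the control), a gap of 0.86. CDC20 was higher by 0.37 in G3 and lower in G14 (789.7 and 375 TPM, against 612 in the control), a gap of 1.07. With the trend on length and GC content removed, CDC20 was at 0.40 in G3, −0.20 in G13 and −0.20 in G14 and no longer met the limit, while CCNB2 was at 0.63 in G3, −0.41 in G13 and −0.29 in G14 and met it through G13 alone. With 1 library per group, neither gap was tested, and both sides share the control.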

How the results depend on the processing

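No paired analysis was possible because every library is labelled as replicate 1 and each group holds 1 library. The alternatives on early 3′ ends were chosen after seeing the data. No 2-fold difference turned into its opposite under the alternatives run. Of the 35 member medians, 4 changed sign with the length and GC trend removed and 1 under median-of-ratios scaling. Median-of-ratios scaling, whose shifts ran from −0.10 in G13 to 0.10 in G5 (log2), gave member medians of 0.25 in G12, 0.345 in G13 and 0.518 in G14, with 2 higher and 0 lower members (2-fold) in G12 and 4 higher in G13. A pseudocount of 1 gave 1 higher member in G11, and a pseudocount of 0.1 moved no count by over 1.5 times. Without a filter on level, 2 members were lower in G13. At a mean of at least 20 TPM, G12 had 0 lower, G13 had 1 higher and 0 lower, and the G13 median was 0.27. Isoforms with a reference ID alone gave 1 higher member in G11 and medians of 0.23 in G12 and 0.30 in G13. The shares of all genes past 2-fold under these settings are not given here.

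Against the median of the other 6 libraries, the member medians were −0.20 for G3, 0.0785 for G5, 0.0761 for G11, −0.0448 for G12, 0.01 for G13 and 0.24 for G14; G3 had 1 higher and 0 lower member, G13 had 0 higher, and G5, G11, G12 and G14 had 0 in both directions. With the trend on length and GC content removed, the medians were 0.0177 in G3, 0.16 in G5, 0.22 in G11, 0.30 in G13 and 0.30 in G14, lower members numbered 0 in all 6 libraries, higher members 0 in G5 and G11 and 4 in G13, and the control was highest for 5 members in place of 3. The share of all genes is not given for that last count, nor for the counts against the median of the other 6 libraries. In that median a difference shared by the knockdown libraries largely cancels. The isoform distance was 0.016 in G3, 0.016 in G5, 0.014 in G11 and 0.025 in G14 with isoforms of at least 1 TPM, and 0.00165, 0.00252, 0.00315, 0.00132, 0.00336 and 0.00225 (G3 to G14) with reference IDs alone, since fewer isoforms enter. The share of member reads under 50% of the widest span was 0.739% to 1.12%; under 80% of the span it was 11.1% to 13.5%, and the highest early-ending share was 1.86%.

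Depth limits genes of few reads (SMC2 with 95 and NCAPH with 181 control reads). No difference can be set against the spread between cultures. The labels do not say what the control carries.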
